A study of Mus musculus with 32 samples.

Results

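Regorafenib at a low dose was compared directly with DC-101 in liver tumours of mice, to find gene expression that differs between a drug with many kinase targets and an antibody that blocks VEGFR2 alone. The comparison rests on 6 of the 32 RNA-seq libraries of the study, chosen by their labels: 3 tumours treated with regorafenib and 3 treated with DC-101 in the same experiment. All tumours came from a single mouse liver cancer line, BNL-MEA, whose cells had been implanted in the liver of BALB/c mice, so every tumour holds whatever liver, vessel and immune cells the host supplied. Mice were treated for 5 days. Regorafenib was given at 5 mg/kg/day and DC-101, an antibody against mouse VEGFR2, was injected into the peritoneum at 800 µg on days 1, 3 and 5. The experiment also held 4 vehicle tumours, which share the estimate of the spread and give the level without either treatment. Regorafenib at the same dose was compared with vehicle in 2 other experiments (13 libraries), which supply tumours that the comparison with DC-101 does not use. The labels number the libraries of a group as replicates without saying more about their origin, so the p-values measure the spread between these libraries.

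VEGFR2, encoded by Kdr, is the main receptor through which VEGF-A drives endothelial cells to divide, migrate and sprout. DC-101 keeps ligand from this receptor. Regorafenib inhibits the kinase domains of the VEGF receptors and also of Tie2, the PDGF and FGF receptors, Kit, Ret, p38 kinase and the CSF1 receptor, on which macrophages depend. Tumour macrophages of the M1 kind make TNF and the chemokines that draw monocytes and T cells, while those of the M2 kind are known for tissue repair and immune suppression.

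Total counts in the 10 tumours of the experiment were between 17.9 M and 25.5 M, and 21417 to 23026 genes had a count. The tumours differed most in liver content. The hepatocyte score, the mean log2 CPM (a gene's count divided by the TMM-scaled total of its library) of 30 hepatocyte genes, was 6.98, 5.05 and 8.06 in the regorafenib tumours, 1.06, 7.30 and 8.86 in the DC-101 tumours and -0.21, 2.37, 5.67 and -0.37 in the vehicle tumours. Alb, the major plasma protein of hepatocytes, had 3260, 546 and 7460 CPM under regorafenib and 23.1, 11800 and 9660 CPM under DC-101. DC-101 tumour 1 thus stood apart from the other 5 treated tumours, and 62.7% of the variance lay on a first component whose ends were vehicle tumour 4 and DC-101 tumour 3. Of the 30 hepatocyte genes none passed an unadjusted p of 0.05 between regorafenib and DC-101, in either direction. Their median log2 difference was -0.54, and it was 0.90 without DC-101 tumour 3, -0.08 without regorafenib tumour 2, -1.15 without DC-101 tumour 1 and -1.38 without regorafenib tumour 3.

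Across 16138 tested genes, none differed between low dose regorafenib and DC-101 at an adjusted p under 0.05 (edgeR, 2-sided; background 0%), and the smallest adjusted p was 0.389. At an unadjusted p under 0.05 there were 1364 genes, where chance gives 807. Of these, 700 were higher in the regorafenib tumours (4.34% of the tested genes) and 664 were lower (4.11%). The limma voom test also gave 0 genes, with 1320 at an unadjusted p under 0.05, whereas DESeq2 gave 203, 110 higher (0.682%) and 93 lower (0.576%), and left 3463 genes without an adjusted p. In 884 genes all 3 regorafenib tumours lay above all 3 DC-101 tumours (5.48%) and in 958 genes all lay below (5.94%). The median log2 difference over all genes was -0.01. No gene below is therefore said to have changed between the treatments, and values, intervals and counts are given in place of calls.

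Against vehicle, the same fit gave 4 genes for regorafenib (0.0248%) and 0 for DC-101 (0%) at an adjusted p under 0.05. Both comparisons use the same 4 vehicle tumours, so their values are set side by side without a measure of likeness. For regorafenib, 1223 genes were higher (7.58%) and 1543 lower (9.56%) at an unadjusted p under 0.05. For DC-101, 1084 were higher (6.72%) and 1047 lower (6.49%), with DESeq2 counts of 373 for DC-101 and 1097 for regorafenib. The hepatocyte genes had a median log2 difference from vehicle of 3.21 for regorafenib and 3.79 for DC-101. Adding the hepatocyte score to the fit took the genes at an unadjusted p under 0.05 from 2766 to 1379 for regorafenib. For DC-101 it took them from 2131 to 977. How far liver content shapes the list values against vehicle was not tested. In the other 2 experiments regorafenib against vehicle gave 34 of 16039 genes (0.212%), 14 higher and 20 lower (391 by DESeq2), with 800 higher (4.99%) and 841 lower (5.24%) at an unadjusted p under 0.05. Leaving out single libraries of the other 2 experiments gave 1 gene without regorafenib tumour 1 or 2 of the dose experiment and 75 without its regorafenib tumour 3. It gave 19, 8, 4 and 7 without its vehicle tumours 1 to 4, and 20 and 5 without vehicle tumour 1 and regorafenib tumour 3 of the anti-PD1 experiment. The 4 genes in the DC-101 experiment fell to 0 without any single vehicle or regorafenib tumour or without DC-101 tumour 2, and became 12 without DC-101 tumour 3.

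Of 10 genes of VEGF signalling 1 differed nominally between the treatments. Flt1, which encodes VEGFR1 and is a marker of endothelial cells, had 14.7, 13.2 and 17.7 CPM in the regorafenib tumours, 10.9, 12.4 and 19 CPM in the DC-101 tumours and 33.9, 50.1, 28.3 and 56.1 CPM in the vehicle tumours. Both treated groups lay below all vehicle tumours and overlapped with each other, with a log2 difference of 0.11 (95% interval -0.55 to 0.77). Kdr itself had 21.4, 30.9 and 38.8 CPM under regorafenib and 15.1, 21.0 and 31.4 CPM under DC-101, a log2 difference of 0.43 (-0.22 to 1.08). The vehicle tumours, at 29.8 to 41.5 CPM, overlapped with both. Vegfa, the main ligand, differed by 0.55 (-0.54 to 1.64). With 1 library left out the edgeR difference ran from 0.18 to 0.75 for Kdr (unadjusted p 0.0249 to 0.532). For Vegfa it ran from 0.26 to 1.14 (unadjusted p 0.0308 to 0.621). Pgf, the ligand of VEGFR1, had 18.3, 50.0 and 27.1 CPM under regorafenib and 3.37, 3.45 and 28.2 CPM under DC-101, so that DC-101 tumours 1 and 2 were low and tumour 3 was not. Over all genes 4.34% were higher and 4.11% lower at an unadjusted p under 0.05. Of the 10 VEGF ligands and receptors only Nrp2, a co-receptor of VEGFR3, passed (log2 difference 0.80, 0.20 to 1.40), and its groups overlapped. The count was 3 without DC-101 tumour 3 and 0 without regorafenib tumour 3 or DC-101 tumour 2.

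Of 25 endothelial genes 1 was higher and 1 lower at an unadjusted p under 0.05 between the treatments, near the 4.34% and 4.11% of all genes, with a median log2 difference of -0.10 that was -0.33 without DC-101 tumour 1 and 0.18 without DC-101 tumour 3. Against vehicle the list's median was -1.10 for regorafenib, with 15 of 25 genes lower at an unadjusted p under 0.05, and -1.07 for DC-101, with 14 of 25 lower. Over all genes these shares were 9.56% and 6.49%. Between the treatments, the count of lower genes was 0 without regorafenib tumour 1, regorafenib tumour 2 or DC-101 tumour 3 and 2 without regorafenib tumour 3, and the count of higher genes was 0 without vehicle tumour 1, vehicle tumour 4 or DC-101 tumour 2. Pecam1 (CD31), the adhesion protein of vessel walls, had 29.9, 35.3 and 28.8 CPM under regorafenib, 23.7, 31.3 and 45.9 CPM under DC-101 and 60.0 to 155 CPM under vehicle. The log2 difference between the treatments was -0.10 (-0.92 to 0.72). Since the tumours were measured in bulk, fewer endothelial cells and less RNA per cell cannot be told apart. The hepatocyte list also differed from vehicle, with medians of 3.21 for regorafenib and 3.79 for DC-101. The part of liver content in the endothelial values was not tested.

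Cldn5, the claudin of endothelial tight junctions (chromosome 16, 18776847 to 18778262, GRCm38), was the endothelial gene that was lower. It had 1.42, 1.5 and 2.51 CPM in the regorafenib tumours, 4.19, 3.36 and 6.02 CPM in the DC-101 tumours and 14.9, 9.10, 6.66 and 24.2 CPM in the vehicle tumours. All 3 regorafenib tumours lay below all DC-101 tumours, which lay below all vehicle tumours. The log2 difference was -1.32 (-2.42 to -0.23), with an unadjusted p of 0.023 and an adjusted p of 0.51. In the other 2 experiments Cldn5 was lower under regorafenib than under vehicle by a log2 difference of -2.21 (adjusted p 0.0146). With 1 library left out it passed in 10 of 13 fits, and not without regorafenib tumour 1 (adjusted p 0.0634) or 2 (0.0592) of the dose experiment or regorafenib tumour 3 of the anti-PD1 experiment (0.0549). The endothelial gene that was higher was Cd34, a sialomucin that other stem and stromal cells also carry, at 600, 371 and 401 CPM against 382, 324 and 245 CPM (unadjusted p 0.0381).

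Apln, the apelin ligand that sprouting endothelial tip cells release (chromosome X, 48025146 to 48034853), separated the treatments. The regorafenib tumours had 72.1, 81.5 and 119 CPM, the DC-101 tumours 27.9, 29.2 and 38.8 CPM, and the vehicle tumours 72.3, 79.6, 52.3 and 43.5 CPM. Each regorafenib tumour lay above every DC-101 tumour, the DC-101 tumours lay below every vehicle tumour, and regorafenib and vehicle overlapped. The log2 difference was 1.51 (0.89 to 2.12, unadjusted p 0.000332), a 2.84-fold higher level under regorafenib. Esm1, a product of tip cells, differed by 0.26 (-1.11 to 1.64), and the median over 21 sprouting genes was 0.12. Apln was the only 1 of them past an unadjusted p of 0.05, where 4.34% of all genes were higher. The count was 4 without regorafenib tumour 1 or DC-101 tumour 3 and 2 without regorafenib tumour 3 or vehicle tumour 4. Adm, adrenomedullin, had 15.3, 55.1 and 67.1 CPM against 3.46, 8.89 and 29.2 CPM (unadjusted p 0.0543). Against vehicle the sprouting list lay lower by a median of -1.14 for regorafenib and -1.26 for DC-101.

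**Figure D1:**
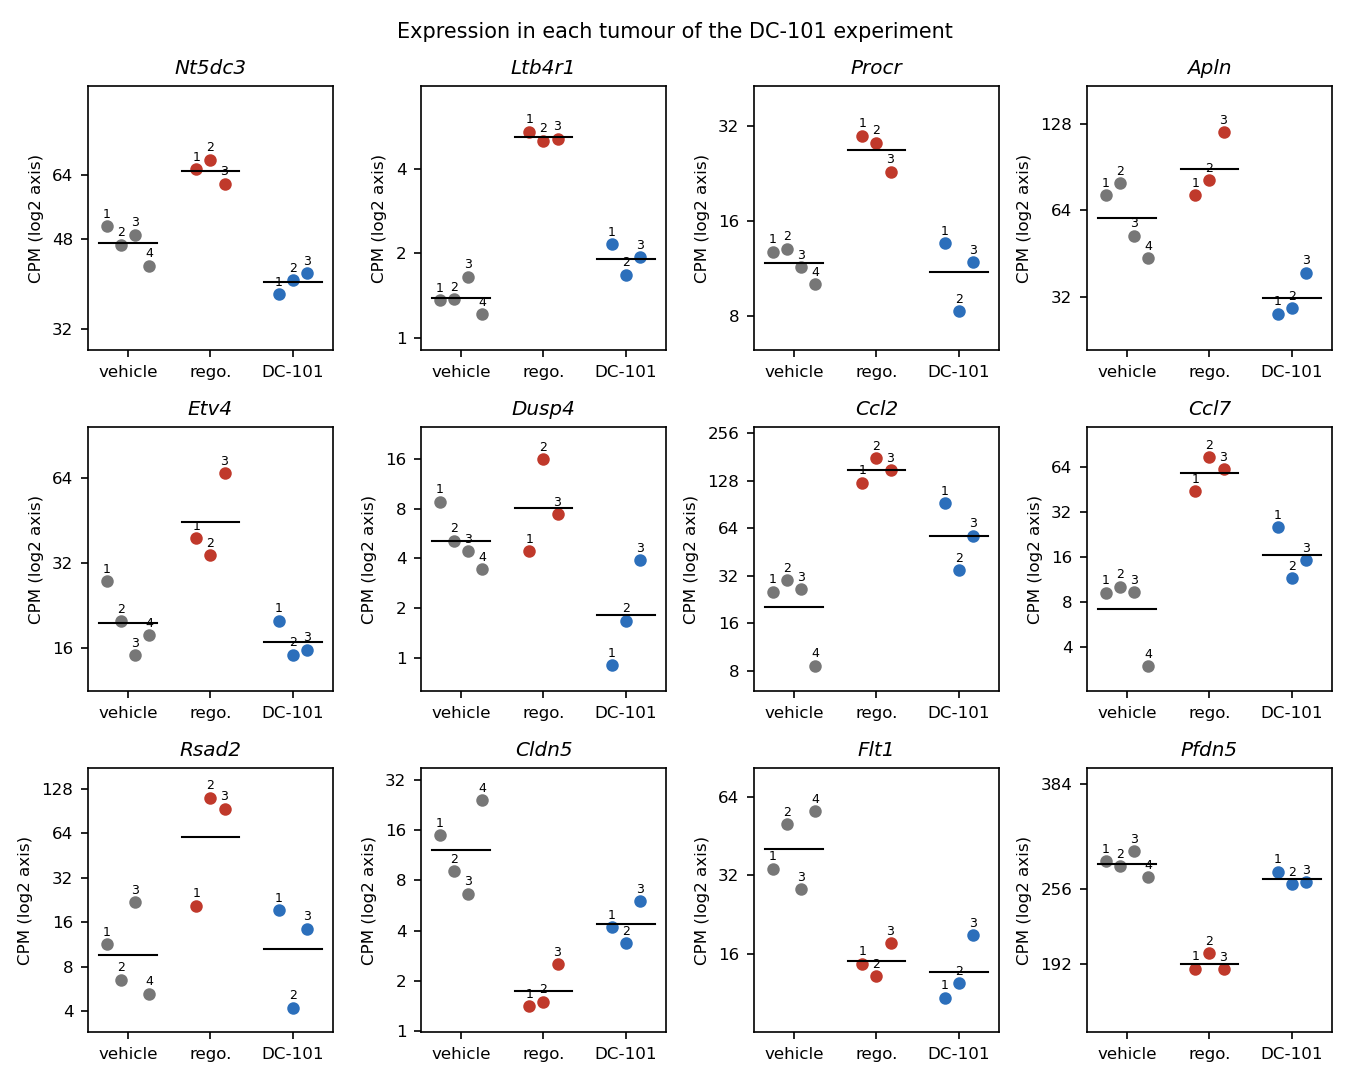
Expression of 12 genes in each tumour of the DC-101 experiment, as CPM on a log2 axis, with 1 point per tumour, the replicate number above it and the geometric mean as a line. Regorafenib and DC-101 tumours do not overlap for any gene shown except Flt1, where both lie below the vehicle tumours.

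Of the kinases that regorafenib inhibits besides the VEGF receptors, the share that differed nominally was near that of all genes. Over all genes 4.34% were higher and 4.11% lower at an unadjusted p under 0.05. Of 16 tested target genes 1 was higher and 1 lower, with a median of 0.01. With 1 library left out 0 or 1 was higher and 0 or 1 lower, and the median was between -0.18 (without DC-101 tumour 1) and 0.06. Epha2, an ephrin receptor, had 152, 137 and 142 CPM under regorafenib and 71.3, 102.9 and 105 CPM under DC-101 (log2 difference 0.62, 0.07 to 1.18). Csf1r differed by -0.24 (-0.84 to 0.36), Pdgfrb by -0.48 (-1.30 to 0.34), Fgfr1 by 0.04 (-0.40 to 0.48) and Mapk14, which encodes p38 alpha, by 0.17 (-0.03 to 0.37). Creb1 differed by 0.20 (-0.05 to 0.44) and Klf4 by -0.19 (-0.67 to 0.29).

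Genes that ERK signalling induces, some of which in turn restrain it, held a large share of nominal differences. Of 14 ERK feedback genes 7 were higher under regorafenib at an unadjusted p under 0.05 and 0 were lower, against 4.34% and 4.11% of all genes. In 5 of the 14 the groups did not overlap with regorafenib above, against 5.48% of all genes. Their log2 differences ran from -0.65 to 2.10 with a median of 0.60. The score of the list was 5.35, 5.78 and 5.77 in the regorafenib tumours, 4.50, 4.73 and 5.32 in the DC-101 tumours and 4.82 to 5.65 in the vehicle tumours, so the vehicle tumours overlapped with both. With 1 library left out the count was between 3 (without regorafenib tumour 2) and 8 and the median between 0.43 and 0.78, and it was 4 without DC-101 tumour 1. Under the hepatocyte covariate, 7 passed and the median was 0.60.

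Etv4, an ETS factor that ERK signalling induces (chromosome 11, 101769742 to 101785371), had 39.1, 33.9 and 66.5 CPM under regorafenib, 19.9, 15.1 and 15.8 CPM under DC-101 and 27.5, 19.9, 15.1 and 17.8 CPM under vehicle. The regorafenib tumours were above all others. The log2 difference was 1.46 (0.79 to 2.12, unadjusted p 0.000736), and DESeq2 gave an adjusted p of 0.00149. Spred3, an inhibitor of Ras and ERK signalling, had 31.1, 46.0 and 42.9 CPM against 19.7, 15.8 and 18.8 CPM (1.14, 0.52 to 1.76), with vehicle at 17.1 to 35.8 CPM. Dusp4, a phosphatase of MAP kinases, had 4.43, 16 and 7.42 CPM against 0.907, 1.68 and 3.92 CPM (2.10, 0.65 to 3.55), and here regorafenib tumour 1 and DC-101 tumour 3 lay close together. In the other 2 experiments neither Etv4 (-0.14, -0.90 to 0.62) nor Spred3 (0.08, -0.98 to 1.14) differed detectably between regorafenib and vehicle, and Dusp4 was at -1.05 (-2.06 to -0.04). Over all genes 4.34% were higher and 4.11% lower at an unadjusted p under 0.05. Of 18 immediate early genes, which the same signalling induces first, 1 was higher and 1 lower, with a median of -0.01. Single libraries moved the counts to 0 to 3 higher (3 without vehicle tumour 4 or DC-101 tumour 3) and 0 to 2 lower (2 without regorafenib tumour 2), and the median to between -0.17 and 0.07. Jun had 222, 216 and 218 CPM against 134, 123 and 184 CPM, whereas Ier2 had 81.2, 71.6 and 53.9 CPM against 84.6, 89.7 and 103.1 CPM.

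Of the chemokines that recruit monocytes none passed the adjusted threshold. Ccl2, Ccl7 and Ccl12, ligands of the monocyte receptor Ccr2, are neighbours on chromosome 11 (82035571 to 82103400 from the first to the last). Ccl7 had 43.9, 74.4 and 61.4 CPM under regorafenib, 25.2, 11.6 and 15.3 CPM under DC-101 and 9.21, 10.1, 9.33 and 2.97 CPM under vehicle. The 3 groups did not overlap, and the log2 difference between the treatments was 1.79 (0.75 to 2.82, unadjusted p 0.00362, DESeq2 adjusted p 0.0106). Ccl12 had 102, 146 and 100 CPM against 56.8, 24.4 and 38.4 CPM (1.54, 0.44 to 2.64), and Ccl2 had 125, 179 and 150 CPM against 92.3, 34.7 and 57.6 CPM (1.30, 0.24 to 2.35). Regorafenib lay above without overlap in both genes, and DC-101 tumour 1 was the DC-101 tumour nearest to it. The vehicle tumours had 8.63 to 29.9 CPM of Ccl2, below all DC-101 tumours, and 7.10 to 26.3 CPM of Ccl12, which overlapped with DC-101. Against vehicle Ccl7 was higher by 2.92 under regorafenib and by 1.13 under DC-101 on the log2 scale. In the other 2 experiments the rise under regorafenib passed the threshold for Ccl7 (1.70, adjusted p 0.0487) and Ccl12 (2.08, adjusted p 0.0171) and not for Ccl2 (0.91, adjusted p 0.27). With 1 of the 13 libraries left out, Ccl7 passed in 2 of 13 fits (adjusted p 0.0268 to 0.13). Ccl12 passed in 8 (adjusted p 0.00916 to 0.0731), and not without regorafenib tumour 1 or 2 or vehicle tumour 2, 3 or 4 of the dose experiment.

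Of 19 tested chemokine and monocyte genes 5 were higher and 0 lower at an unadjusted p under 0.05, 7 lay above and 1 below without overlap, and the median log2 difference was 0.99. Over all genes 4.34% were higher and 5.48% lay above. Ccl4, which draws monocytes and T cells, had 7.45, 19.8 and 13.5 CPM under regorafenib against 3.46, 1.02 and 4.30 CPM under DC-101 (2.21, 0.54 to 3.89). Cxcl10, which draws T cells through Cxcr3, had 21.0, 43.2 and 38.4 CPM against 18.1, 4.73 and 9.35 CPM (1.67, 0.10 to 3.24). Cxcl9, a ligand of the same receptor, had 17.1, 49.4 and 18.8 CPM against 10.1, 5.97 and 16.1 CPM, without overlap but with an interval from -0.60 to 3.42. The vehicle tumours lay below all regorafenib tumours for Ccl4 (0.809 to 5.30 CPM) and Cxcl10 (2.7 to 14 CPM) and overlapped with both treatments for Cxcl9 (1.84 to 34.9 CPM), below regorafenib tumour 2. The count of 5 was between 2 (without regorafenib tumour 2) and 6 with 1 library left out, and it was 3 without DC-101 tumour 2. Over these fits the median of the list ran from 0.65 to 1.30.

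All 19 tested M1 genes had a positive log2 difference, with a median of 0.99, and 3 were past an unadjusted p of 0.05 (4.34% of all genes). The count was 0 without DC-101 tumour 2, 1 without regorafenib tumour 2, where the median was 0.47, and 5 without DC-101 tumour 3. The highest median with 1 library left out was 1.2. Lists in this report share some members, so their counts are not independent. Tnf had 7.73, 12.5 and 7.19 CPM under regorafenib, 4.49, 1.86 and 3.92 CPM under DC-101 and 1.21 to 3.89 CPM under vehicle (1.42, 0.35 to 2.48). Il23a, a subunit of interleukin 23, had 3.93, 2 and 1.48 CPM against 1.47, 0.619 and 0.645 CPM, where the lowest regorafenib and the highest DC-101 tumour nearly met. Nos2, the inducible nitric oxide synthase, had 5.39, 85.0 and 12.1 CPM against 1.253, 1.46 and 17.4 CPM, so its estimate of 2.36 (-0.57 to 5.28) rested on regorafenib tumour 2. It was 0.37 in the lowest of the fits that left out 1 library. Il6 differed by 1.66 (-2.32 to 5.64), an interval too wide to place it. Neither Ifng nor Il12b passed the filter on low counts.

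The 20 macrophage identity genes had a median of -0.23, with 1 higher and 0 lower at an unadjusted p under 0.05. There were 2 lower genes without regorafenib tumour 1 or DC-101 tumour 3, the count of higher genes was 0 in each fit with 1 library left out except those without regorafenib tumour 3 or DC-101 tumour 1, and the median was 0.05 without DC-101 tumour 1. Adgre1 (F4/80), the macrophage marker, had 136, 152 and 110 CPM against 217, 131 and 136 CPM (-0.29, -0.86 to 0.29). Of 17 M2 genes 0 passed an unadjusted p of 0.05, with a median of -0.21 (-0.33 to -0.01 with 1 library left out, and 2 lower genes without DC-101 tumour 3). Mrc1 (CD206) had 216, 268 and 327 CPM against 416, 350 and 200 CPM (-0.25, -1.16 to 0.66). The list of M1 over M2 genes that the study used had 11 of 48 tested genes higher at an unadjusted p under 0.05, 0 lower and a median of 0.60, and its list of M2 over M1 genes had 1 of 30 higher, 0 lower, 20 positive, 5 above without overlap and a median of 0.25. Over all genes 4.34% were higher and 5.48% lay above, and the lists were not tested against each other. The first count ran from 2 (without regorafenib tumour 2 or DC-101 tumour 2) to 16 (without regorafenib tumour 1), and was 4 without regorafenib tumour 3 and 5 without DC-101 tumour 3. With 1 library left out the median ran from 0.37 to 0.83 for the first list and from 0.14 to 0.35 for the second. The second list then had 1 or 2 higher and 0 or 1 lower genes.

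Interferon response genes held the largest number of nominal differences of the 30 lists, together with the M1 list of the study that contains some of them. Of 35 interferon genes all had a positive log2 difference, 11 were higher at an unadjusted p under 0.05, 0 were lower and 6 lay above without overlap, against 4.34%, 4.11% and 5.48% of all genes. The median was 1.13. The score of the list was 4.26, 5.60 and 5.41 in the regorafenib tumours, 4.45, 3.37 and 4.19 in the DC-101 tumours and 3.00 to 4.80 in the vehicle tumours. Regorafenib tumour 1 thus lay within the DC-101 range. Against vehicle the median was 1.21 for regorafenib, with 22 of 35 genes higher at an unadjusted p under 0.05, and 0.18 for DC-101, with 0 of 35, where 7.58% and 6.72% of all genes were higher. The other 2 experiments gave a median of 0.36 for regorafenib against vehicle, with 3 of 35 genes higher, against 4.99% of all genes.

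Which tumours entered the fit moved the interferon count widely and the median little. The count of 11 became 2 without regorafenib tumour 2, regorafenib tumour 3 or DC-101 tumour 2, 4 without DC-101 tumour 3, 7 without vehicle tumour 2 or with the hepatocyte score as a covariate, 21 without regorafenib tumour 1 and 23 without vehicle tumour 3. The median stayed between 0.84 and 1.43. Rsad2 (viperin), an antiviral enzyme (chromosome 12, 26442746 to 26456452), had the largest difference of the list. It had 20.8, 111 and 93.6 CPM under regorafenib, 19.3, 4.25 and 14.5 CPM under DC-101 and 11.4, 6.55, 21.8 and 5.26 CPM under vehicle. The difference was 2.57 (0.72 to 4.41, unadjusted p 0.0119, DESeq2 adjusted p 0.027), and regorafenib tumour 1 lay next to DC-101 tumour 1. Cmpk2, a nucleotide kinase whose gene lies beside Rsad2, had 10.9, 38.1 and 38.8 CPM against 12.7, 3.71 and 6.83 CPM (1.91, 0.36 to 3.47). Ifi204, a DNA sensor from a family of near-identical genes, whose counts are uncertain for that reason, had 56, 100.8 and 87.5 CPM against 48.5, 39.5 and 49.5 CPM (0.83, 0.28 to 1.38).

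Most interferon response genes are induced through a shared DNA element, so the promoters of 3 members that lay high in regorafenib tumours 2 and 3 are shown. Each is the window from 250 bases before to 50 bases after the RefSeq start (GRCm38.p6), 5′ to 3′ on the strand of the gene, with matches to the core of the interferon stimulated response element (GAAA, any 2 bases, GAAA) on either strand in capitals. Rsad2 is read from the minus strand at chr12:26456403-26456702, Cmpk2 from the plus strand at chr12:26468965-26469264 and Cxcl10 from the minus strand at chr5:92348840-92349139.
Rsad2: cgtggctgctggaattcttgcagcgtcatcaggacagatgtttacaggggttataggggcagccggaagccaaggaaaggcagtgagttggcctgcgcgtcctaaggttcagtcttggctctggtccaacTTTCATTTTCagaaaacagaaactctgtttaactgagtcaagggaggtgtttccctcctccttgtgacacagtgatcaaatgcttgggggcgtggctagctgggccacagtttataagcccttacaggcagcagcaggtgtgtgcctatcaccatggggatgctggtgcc
Cmpk2: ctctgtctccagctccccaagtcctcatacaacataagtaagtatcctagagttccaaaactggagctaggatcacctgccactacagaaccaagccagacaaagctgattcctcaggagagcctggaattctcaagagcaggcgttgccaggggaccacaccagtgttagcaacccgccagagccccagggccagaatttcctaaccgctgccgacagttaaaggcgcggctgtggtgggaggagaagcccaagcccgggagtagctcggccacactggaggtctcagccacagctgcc
Cxcl10: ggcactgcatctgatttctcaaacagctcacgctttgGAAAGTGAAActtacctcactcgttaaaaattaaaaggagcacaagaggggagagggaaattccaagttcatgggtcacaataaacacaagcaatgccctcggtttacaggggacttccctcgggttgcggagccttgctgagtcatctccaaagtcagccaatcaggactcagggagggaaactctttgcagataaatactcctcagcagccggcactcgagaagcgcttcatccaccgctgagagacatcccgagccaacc
In Rsad2 the match lies on the opposite strand and begins 120 bases before the start, and in Cxcl10 it begins 213 bases before it. The window of Cmpk2 holds none. Of the 35 list members 24 had a window, and 15 of these (62.5%) held a match, against 3.99% of 27025 genes and 3.44% of 32851 windows. No window was at hand for the other 11 members, Mx1, Mx2 and Ifi204 among them. Among the 11 members past an unadjusted p of 0.05, 8 had a window and 4 of them a match, and among the other 24 members 16 had a window and 11 a match.

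**Figure D2:**
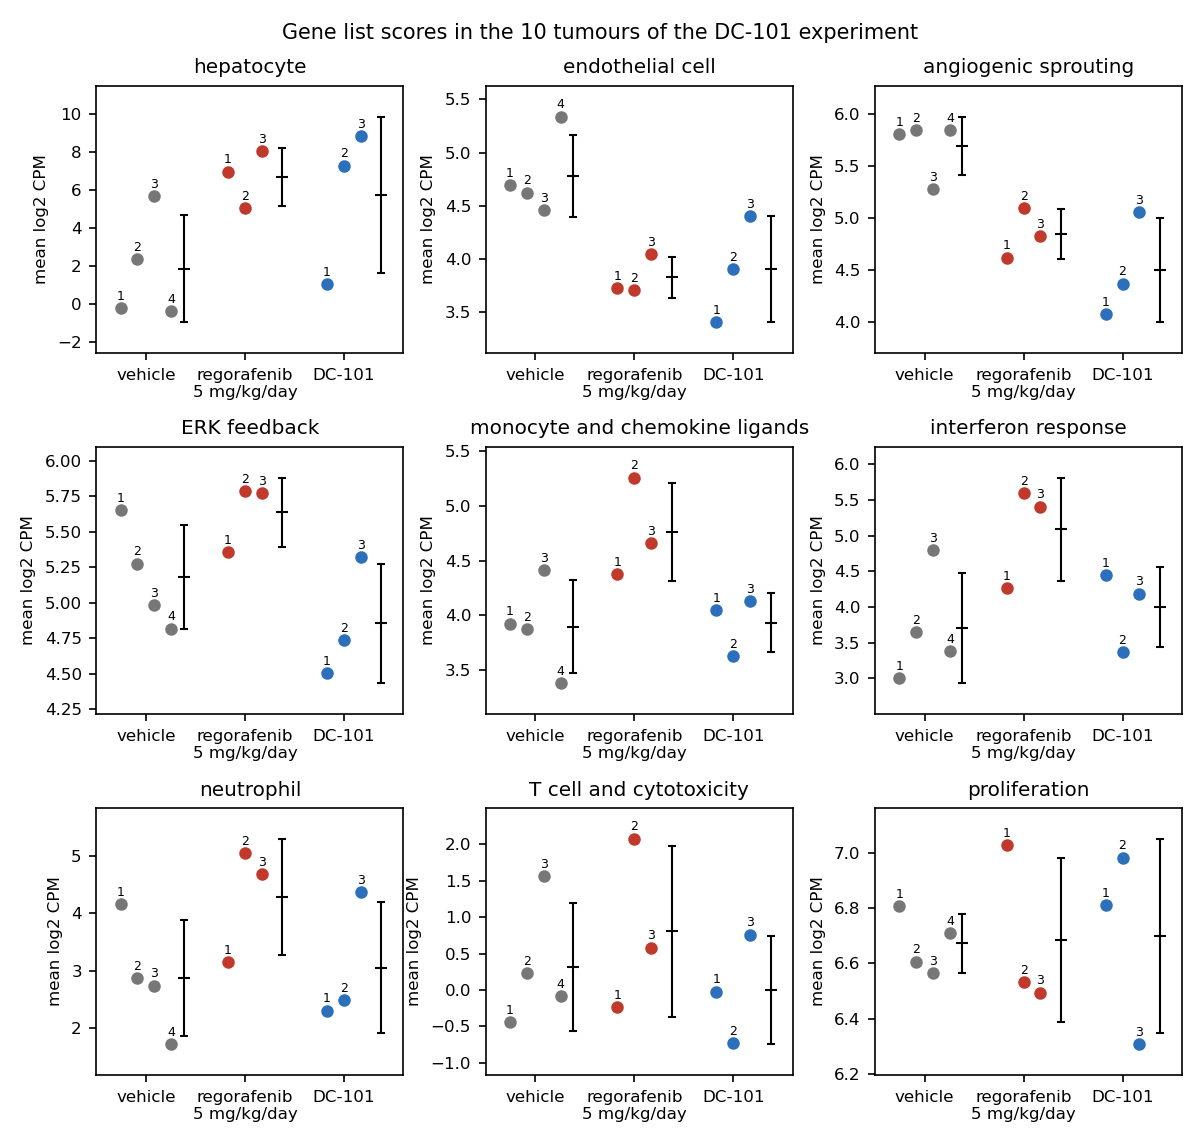
Scores of 9 gene lists, the mean log2 CPM of the tested members, in each tumour of the DC-101 experiment, with replicate numbers above the points and the mean and SD of each group beside them. Endothelial and sprouting scores overlap between regorafenib and DC-101 below all vehicle tumours, the ERK feedback and chemokine scores of the regorafenib tumours (from 5.35 and from 4.38) lie above those of the DC-101 tumours (up to 5.32 and up to 4.13), and the hepatocyte score spans 1.06 to 8.86 within DC-101.

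All 30 tested T cell and cytotoxicity genes had a positive log2 difference and the median was 1.03. Only Il2ra, the interleukin 2 receptor, passed an unadjusted p of 0.05, where 4.34% of all genes were higher. The score was -0.24, 2.08 and 0.58 in the regorafenib tumours and -0.03, -0.73 and 0.76 in the DC-101 tumours, so the groups overlapped. Without regorafenib tumour 2 the median was 0.05, and without DC-101 tumour 3 it was 1.74 with 5 genes past an unadjusted p of 0.05. The count was 3 without regorafenib tumour 1, 2 without vehicle tumour 3 and 0 without regorafenib tumour 2, DC-101 tumour 1 or DC-101 tumour 2. Cd8a had 2.01, 14.8 and 2.34 CPM under regorafenib against 3.54, 1.15 and 4.78 CPM under DC-101 (1.02, -1.55 to 3.59), Cd4 0.777, 4.05 and 2.51 CPM against 0.605, 0.442 and 2.58 CPM, and Gzmb 1.24, 6.19 and 5.14 CPM against 5.66, 1.46 and 1.07 CPM. The checkpoint receptor gene Pdcd1 differed by 0.75. A difference of T cell genes between the treatments was not detectable against this spread.

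The lists of antigen presentation, dendritic cell and B cell genes each held 0 or 1 gene past an unadjusted p of 0.05. Over all genes 4.34% were higher and 4.11% lower. Of 12 MHC class II genes 0 passed an unadjusted p of 0.05, with a median of 0.95 that became -0.05 without regorafenib tumour 2, 0.49 without DC-101 tumour 2 and 1.77 with 1 higher gene without DC-101 tumour 3. Ciita, their master regulator, had 5.49, 27.5 and 7.19 CPM against 4.54, 2.03 and 9.89 CPM. All 14 MHC class I genes had a positive difference and 0 passed an unadjusted p of 0.05 (2 without vehicle tumour 1 or 3, 1 without regorafenib tumour 1). Their median was 0.35 (0.21 to 0.48 with 1 library left out). Tap1, the peptide transporter, had 118, 190 and 140 CPM against 111, 85.4 and 102 CPM. Of 13 dendritic cell genes all were positive, with a median of 0.71, and Fscn1, an actin bundling protein that mature dendritic cells and many tumour cells carry, passed an unadjusted p of 0.05 at 309, 274 and 321 CPM against 218, 249 and 233 CPM. Without DC-101 tumour 3 there were 4 higher dendritic genes and a median of 1.26, and without regorafenib tumour 1 there were 3. There were 2 without vehicle tumour 1 or 3, regorafenib tumour 3 or DC-101 tumour 1. The median was 0.40 without DC-101 tumour 2, 0.43 without regorafenib tumour 2 and 0.44 without DC-101 tumour 1. The 10 tested B cell and plasma cell genes had a median of 0.27, which was -0.42 without regorafenib tumour 2, and 0 passed an unadjusted p of 0.05. With 1 library left out their median reached 1.03, with 0 to 2 higher and 0 or 1 lower genes.

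Neutrophil genes had a median of 0.96 with all 21 tested genes positive, 3 of them past an unadjusted p of 0.05 and 3 above without overlap (4.34% and 5.48% of all genes). Against vehicle the median was 1.53 for regorafenib in the DC-101 experiment. It was -0.60 in the other 2 experiments, where 2 of 19 tested genes were higher and 6 lower (4.99% and 5.24% of all genes). The count was 1 without DC-101 tumour 2 and 2 without regorafenib tumour 2, and without DC-101 tumour 3 it was 5 with a median of 2.10. Clec4e (Mincle), a receptor of myeloid cells, had 23.6, 55.5 and 36.6 CPM under regorafenib, 18.4, 14.8 and 14.4 CPM under DC-101 and 7.37 to 17.2 CPM under vehicle (1.28, 0.48 to 2.09, DESeq2 adjusted p 0.0383). Fpr2, a formyl peptide receptor, had 17.6, 31.8 and 20.0 CPM against 10.9, 7.74 and 8.98 CPM (1.33, 0.31 to 2.35). Trem1, an amplifier of myeloid inflammation, had 28.5, 40.8 and 21.1 CPM against 20.7, 15.8 and 18.0 CPM (0.73, 0.08 to 1.38). All 3 genes lay above without overlap, although regorafenib and DC-101 nearly met in Trem1.

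Ltb4r1, the receptor through which leukotriene B4 attracts neutrophils and other myeloid cells (chromosome 14, 55765962 to 55768494), was among the genes chosen for their small p. It had 5.44, 5.05 and 5.14 CPM in the regorafenib tumours, 2.16, 1.68 and 1.94 CPM in the DC-101 tumours and 1.36, 1.37, 1.65 and 1.21 CPM in the vehicle tumours. The spread within each group was small beside the gap between regorafenib and the rest. The log2 difference from DC-101 was 1.43 (0.95 to 1.92, unadjusted p 7.85e-05, adjusted p 0.389), a 2.7-fold higher level. Against vehicle it was 1.89 for regorafenib (adjusted p 0.0229), and 0.46 for DC-101 (adjusted p 0.371). The call against vehicle held in 2 of 10 fits with 1 library left out, those without DC-101 tumour 1 or 3 (adjusted p 0.0453 to 0.115 over the 10). It did not hold with the hepatocyte score as a covariate (adjusted p 0.317), the replicate block (0.343) or only the groups compared (0.0762). In the other 2 experiments regorafenib did not move it detectably (-0.04, -0.77 to 0.69), where the levels were 0.788 to 1.49 CPM in vehicle and 1.12 to 1.43 CPM in regorafenib tumours of the dose experiment. In the anti-PD1 experiment the vehicle tumours had 1.96 to 8.46 CPM (mean 4.62) and the regorafenib tumours 2.69 to 4.54 CPM (mean 3.62), so that vehicle reached above the regorafenib level of the DC-101 experiment.

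The genes with the smallest p that were higher under regorafenib were Nt5dc3, Ltb4r1, Mtmr4, Procr, Zfpm2, Apln, Lrp8 and Ccbe1. They were taken among genes whose mean log2 CPM over the regorafenib and DC-101 tumours was not negative. Nt5dc3 (chromosome 10, 86779005 to 86838389) had 65.7, 68.5 and 61.5 CPM against 37.5, 39.9 and 41.2 CPM, with vehicle between them at 42.6 to 50.8 CPM (0.72, 0.51 to 0.94, unadjusted p 2.85e-05). Procr, the endothelial protein C receptor, had 29.8, 28.3 and 22.9 CPM against 13.6, 8.27 and 11.8 CPM, and the vehicle tumours, at 10.1 to 13.1 CPM, lay with DC-101 (1.27, 0.81 to 1.73). Ccbe1, a secreted protein needed for the activation of VEGF-C, had 130, 100 and 81.5 CPM against 55.2, 59.8 and 51.6 CPM, with vehicle at 60.9 to 79.2 CPM. Mtmr4, a lipid phosphatase of endosomes, Zfpm2, a partner of GATA factors, and Lrp8, a receptor of reelin and apolipoprotein E, differed by 0.56, 0.94 and 0.89.

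The genes with the smallest p that were lower under regorafenib were Pfdn5, Uqcc3, Apopt1, Arhgef19, Hfe, Gm10522, Fcgrt and Msrb3, taken by the same rule. Pfdn5, a subunit of the prefoldin chaperone (chromosome 15, 102326116 to 102331873), had 188, 200 and 188 CPM against 274, 261 and 263 CPM, with vehicle at 268 to 296 CPM (-0.47, -0.65 to -0.29, unadjusted p 0.000207). Uqcc3 and Apopt1, assembly factors of the respiratory chain, differed by -0.63 and -0.61. Fcgrt, the neonatal Fc receptor that recycles IgG, had 64.4, 66.1 and 98.2 CPM against 132, 136 and 132 CPM, with vehicle at 110 to 128 CPM (-0.81, -1.16 to -0.45). Msrb3, a methionine sulfoxide reductase, had 61.4, 63.7 and 51.2 CPM against 84.6, 88.4 and 84.5 CPM, and 107 to 129 CPM under vehicle (-0.55, -0.79 to -0.31). Against vehicle Msrb3 was past the threshold for regorafenib (-0.99, adjusted p 0.0229). That call held in 2 of 10 fits with 1 library left out, those without DC-101 tumour 1 or 3 (adjusted p 0.0442 to 0.109 over the 10). It ended under the hepatocyte covariate (0.317), the replicate block (0.343) and with only the groups compared (0.0752). Hfe, a regulator of iron uptake, and Arhgef19, a guanine nucleotide exchange factor, differed by -0.75 and -0.80, and Gm10522, a predicted gene, by -2.76 at 0.571 to 1.09 CPM against 3.84 to 7.52 CPM.

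These 16 genes were selected by p among 16138, so their p and the gaps between their groups are a description of them. In the other 2 experiments none of the 16 was past the threshold for regorafenib against vehicle, with Mtmr4 (0.37, unadjusted p 0.0385) and Gm10522 (-1.91, unadjusted p 0.0097) at the lowest p.

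**Figure D3:**
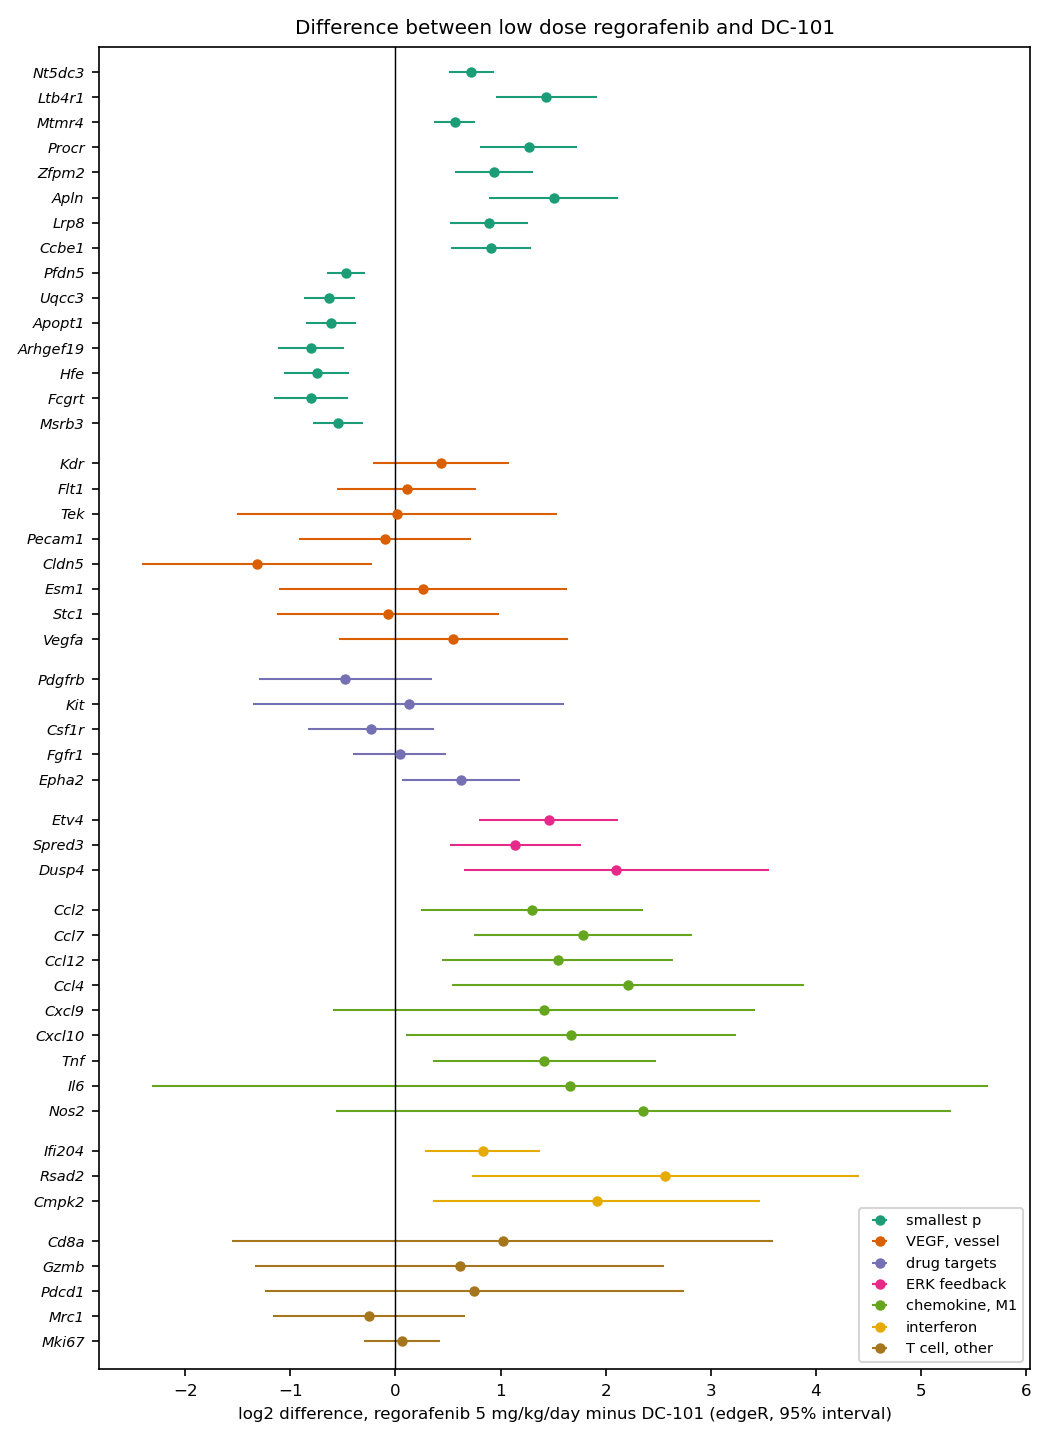
Log2 difference of regorafenib at 5 mg/kg/day minus DC-101 for genes named in the text and further panel genes, as edgeR estimates with 95% intervals, coloured by group. The genes with the smallest p, Etv4, Spred3 and Dusp4, the Ccl chemokines and the interferon genes lie off 0. Apart from Ccl2, Ccl7 and Ccl12 they were picked by p in this comparison, so their place follows from that choice. The intervals of Kdr, Flt1, Pecam1, Csf1r, Cd8a and Mki67, which were panel genes, hold 0.

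The remaining lists held few nominal differences, where 4.34% of all genes were higher and 4.11% lower at an unadjusted p under 0.05. Of 24 proliferation genes 0 passed an unadjusted p of 0.05, with a median of 0.01. Without regorafenib tumour 1 there were 4 lower genes and a median of -0.24, and without DC-101 tumour 3 there were 3 and -0.19. Mki67 had 373, 379 and 374 CPM under regorafenib against 398, 405 and 275 CPM under DC-101 (0.06, -0.29 to 0.42). Of 25 hypoxia and glycolysis genes 2 were higher, Ankrd37 and Pfkp, against 4.34% of all genes, with a median of 0.51 that was 0.32 without DC-101 tumour 1 and 1.04 without DC-101 tumour 3. That count was 16 without DC-101 tumour 3, whose Vegfa and Adm were the highest of the DC-101 tumours, 5 without regorafenib tumour 1, 4 without vehicle tumour 4, 1 without vehicle tumour 1, vehicle tumour 3 or DC-101 tumour 2 and 0 without regorafenib tumour 2, regorafenib tumour 3 or DC-101 tumour 1. TNF and NF-kB targets had 2 of 23 higher with a median of 0.41 (0.15 without regorafenib tumour 2, 0.20 without DC-101 tumour 2 and 0.65 without DC-101 tumour 3), a count that was 6 without DC-101 tumour 3, 5 without regorafenib tumour 1, 4 without vehicle tumour 4 and 0 without regorafenib tumour 2 or DC-101 tumour 2. Of 20 genes of the IL-6 family and the acute phase 0 were higher and 1 lower: Il6ra, the IL-6 receptor, had 56.8, 75.5 and 68.5 CPM against 106, 113 and 91.8 CPM (-0.63, -1.13 to -0.13). Without DC-101 tumour 3 there were 5 higher genes and the median of 0.28 became 1.32, without DC-101 tumour 1 it was 0.02, without DC-101 tumour 2 0.04, without regorafenib tumour 3 0.08 (with 2 lower genes) and without regorafenib tumour 2 0.12. Without regorafenib tumour 1 it was 0.47 with 0 lower genes, and without vehicle tumour 4 there was 1 higher gene. The study's IL-6 signature had 1 of 15 higher, Ifitm3, with a median of 0.21. The median was 1.07 with 3 higher genes without DC-101 tumour 3, 0.45 without regorafenib tumour 1, 0.32 without regorafenib tumour 2, 0.07 without regorafenib tumour 3 and -0.11 without DC-101 tumour 1, and 0 genes were higher without regorafenib tumour 3 or DC-101 tumour 2. Fibroblast and matrix genes had 1 of 20 higher, Thy1, with a median of 0.04, and pericyte genes 0 of 13 with a median of -0.07. The pericyte median was -0.57 without regorafenib tumour 3, -0.48 without DC-101 tumour 1, -0.21 without DC-101 tumour 2 and 0.35 without DC-101 tumour 3. The fibroblast median was between -0.16 (without regorafenib tumour 3) and 0.27 (without regorafenib tumour 1), and was negative also without regorafenib tumour 2 or DC-101 tumour 2. There were 2 higher fibroblast genes without regorafenib tumour 1 or DC-101 tumour 3, and 0 without vehicle tumour 4, regorafenib tumour 2 (2 lower) or either of DC-101 tumours 1 and 2.

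Markers of cells of the surrounding liver and blood gave no nominal differences in the main fit, where 4.34% of all genes were higher and 4.11% lower. Of 14 Kupffer cell and sinusoid genes, 10 cholangiocyte genes and 6 erythroid genes 0 passed an unadjusted p of 0.05, with medians of -0.31, 0.21 and -0.52. The Kupffer median was 0.12 without regorafenib tumour 2, 0.31 without DC-101 tumour 3 and -1.26 without regorafenib tumour 3. The cholangiocyte median was -0.40 without regorafenib tumour 3 and -0.13 without DC-101 tumour 1, and its highest value with 1 library left out was 0.60. In these fits the cholangiocyte list had 0 or 1 higher gene and the Kupffer list 0 or 1 lower gene. The Kupffer score was 2.24 to 4.47 in the regorafenib tumours and -0.03 to 4.48 in the DC-101 tumours. The part of liver content in the differences above was not settled. The edgeR count was 0 genes both in the main fit and under the covariate. A count already at 0 cannot show what liver content contributed. At an unadjusted p under 0.05 there were 1375 genes under the covariate and 1364 in the main fit.

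**Figure D4:**
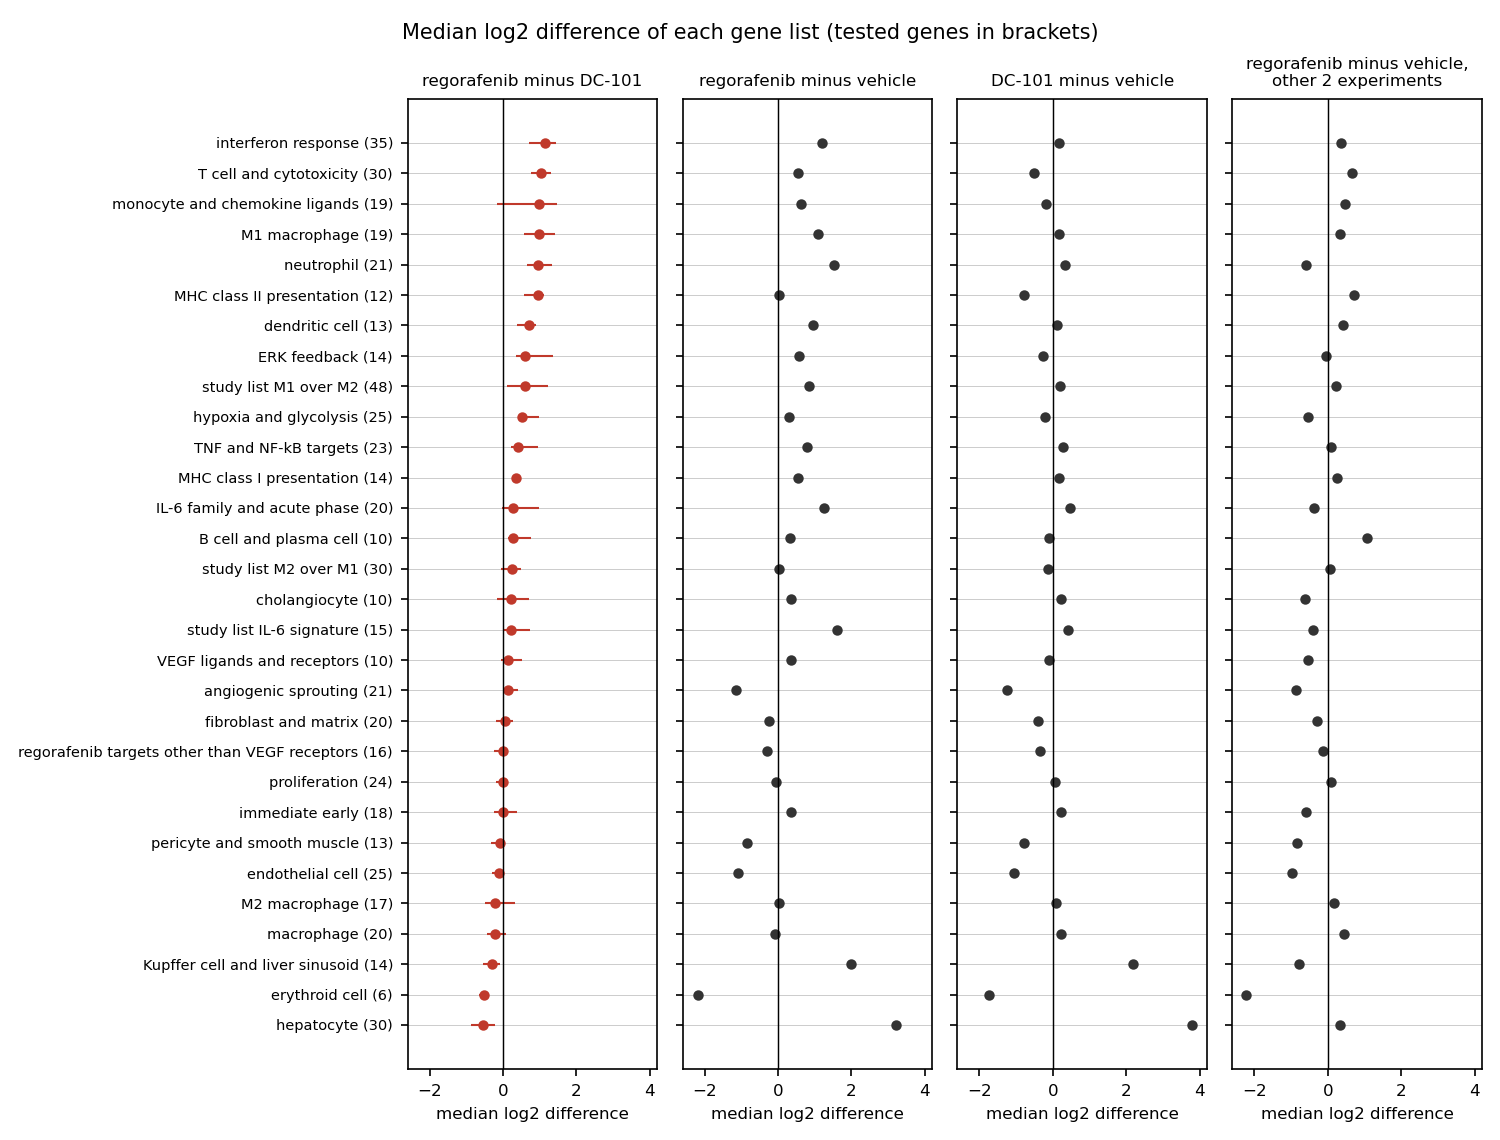
Median log2 difference of the tested genes of 30 lists in 4 comparisons, with the interquartile range drawn for regorafenib minus DC-101, on 1 shared axis. Lists are ordered by the first panel, from interferon response (1.13) down to hepatocyte (-0.54), and the endothelial list lies at -0.10 there but at -1.10 and -1.07 against vehicle.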

How the data were processed

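RNA from whole tumours was sequenced, and the deposited values were whole counts of reads per Ensembl gene, not normalized. The submitters' processing notes name cutadapt 2.4, STAR 2.7.2a and the build GRCm38. Which strand column of STAR was deposited is not given in the sources used here. The authors applied TMM scaling and limma.

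Here genes were kept by filterByExpr, and all 10 tumours of the DC-101 experiment were fitted in edgeR 4.0.16 (R 4.3.3, TMM, robust quasi-likelihood test, 2-sided) with Benjamini-Hochberg adjustment at a threshold of 0.05. DESeq2 1.42.0, limma 3.58.1 (voom), other scalings and filters, a replicate block, the hepatocyte score and leaving out each library were alternatives. The fit was tested on simulated data. No samples were unassigned, and no pair of libraries was a duplicate.

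The 30 gene lists (628 entries, 623 matched) came from general knowledge and, for 3 lists, from the study. Of their genes 67 stand in more than 1 list. Members and lists were chosen with earlier results of these data known. The genes named were a panel, the 8 of smallest p per direction, since none passed the threshold, and up to 3 members of each list with the smallest p. The 8 were taken among genes whose mean log2 CPM over the regorafenib and DC-101 tumours was not negative. Gene coordinates are Gencode M21 and promoters RefSeq, both on GRCm38. Some results are not reported here.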

Additional observations from a re-analysis of the deposited data

Results flagged for a closer look

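Several values were flagged because 1 of the 4 vehicle tumours lay far from the other 3, which chance does in about 1 in 20 groups. On the log2 CPM scale, vehicle tumour 4 was low for Ccl2 (3.12, others 4.67 to 4.91), Ccl7 (1.61, others 3.22 to 3.35), Ccl4 (-0.15, others 2.31 to 2.43) and Jun (6.28, others 7.08 to 7.24). Vehicle tumour 3 was low in the sprouting score (5.28, others 5.81 to 5.85), high in the Kupffer score (2.88, others 0.38 to 0.75) and high in Cps1, a urea cycle enzyme of hepatocytes (4.70, others -2.16 to -1.45). Vehicle tumour 1 was high in Hbb-bs, a beta globin (10.64, others 5.97 to 6.75), Folr2, a folate receptor of macrophages (4.96, others 3.83 to 4.01), and Mmp9, a matrix protease of neutrophils (7.33, others 6.67 to 6.78). Vehicle tumour 2 was low in Thy1 (3.54, others 4.19 to 4.30).

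In further named genes every regorafenib tumour lay above the vehicle mean in 1 experiment and every one lay below it in another, on the log2 CPM scale. Between the dose and the DC-101 experiment, in that order, the differences from vehicle were 0.50 and -0.65 for Hfe, -1.07 and 0.46 for Vegfa, -0.18 and 0.73 for Nrp2, -1.68 and 1.48 for Cnn1, 0.72 and -0.29 for C1qc, 1.01 and -0.39 for Fcgr2b, -0.14 and 0.35 for Ier2, -0.38 and 0.35 for Ankrd37, -0.66 and 0.78 for Pfkp, -0.47 and 1.36 for Spp1 and -0.21 and 0.19 for Hacd1. Between the anti-PD1 and the DC-101 experiment they were 0.61 and -1 for Msrb3, 0.31 and -0.21 for Kif11, -0.75 and 0.62 for Tiam1, and, among liver genes, -3.56 and 4.81 for Tat, -4.20 and 5.55 for Cps1, -3.11 and 5.17 for Pck1 and -4.19 and 3.33 for Marco. Between the dose and the anti-PD1 experiment they were 0.67 and -0.48 for Thy1, -0.36 and 0.31 for Kif11, -0.47 and 0.74 for Spp1 and -0.21 and 0.62 for Hacd1. Single tumours could still overlap: Msrb3 had 83.9 to 120 CPM in the regorafenib and 32.6 to 97.9 CPM in the vehicle tumours of the anti-PD1 experiment. These differences between experiments were not tested.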

How the results depend on the processing

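With 3 tumours a group, the DC-101 comparison gave 0 genes under every edgeR and voom alternative, and DESeq2 gave 203. For regorafenib against vehicle the 4 genes became 1097 (DESeq2), 12 (no filter), 9 (at least 10 counts in every library), 1 (only the groups compared), 0 with the hepatocyte score and 0 to 12 with 1 library left out. DC-101 against vehicle gave 373 with DESeq2. The 34 genes of the other 2 experiments became 391 with DESeq2, 69 with the hepatocyte score and 1 to 75 with 1 library left out. The cause was not tested.

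Whether replicate numbers pair the samples was not settled, since the deviations also hold the liver content that differed within groups. Of 9 same-numbered pairs 4 had correlated deviations over 0.1, and the pairs numbered 3 were at 0.63, 0.45 and 0.67. Of the 3 regorafenib tumours 1 correlated best with the DC-101 tumour of its own number. With the replicate as a block (vehicle tumour 4 left out) the DC-101 comparison gave 0 genes (1157 at unadjusted p below 0.05) and regorafenib against vehicle also 0.

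With 1 library left out, list medians ran from -0.03 to 0.53 for VEGF genes, -0.04 to 0.58 for sprouting genes, 0.63 to 2.10 for neutrophil genes, -0.05 to 1.77 for MHC class II genes and -2.08 to -0.02 for erythroid genes. Log2 differences that turned sign ran from -0.07 to 0.38 for Flt1, from -0.62 to 0.77 for Tek, from -0.29 to 1.19 for Kit, from -0.41 to 0.05 for Csf1r, from -0.05 to 0.16 for Fgfr1, from -0.33 to 0.18 for Pecam1, from -0.21 to 0.77 for Esm1, from -0.62 to 0.25 for Stc1, from -0.72 to 5.92 for Il6, from -0.55 to 1.42 for Cd8a, from -0.52 to 1.36 for Pdcd1, from -0.10 to 0.13 for Mki67, from -0.19 to 2.32 for Saa3 and from -1.53 to 1.59 for Marco. Without a filter Tek was at -0.01, and with voom Marco was at 0.55.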

Other observations

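Exon length went with the direction of the nominal differences between regorafenib and DC-101, a pattern examined after the values were seen. Of the 16138 tested genes 15316 had a length, with a median of 3896 bases. The median was 5378 bases in the 666 genes that were higher under regorafenib at an unadjusted p under 0.05 and 3451 bases in the 625 that were lower. With the genes cut by length into 5 equal bins, in the bin with the shortest exons the median log2 difference was -0.075, with 2.25% higher and 4.41% lower, and in the bin with the longest it was 0.058, with 7.35% higher and 2.61% lower. The mean log2 CPM of the longest bin minus that of the shortest was 2.61, 2.99 and 2.87 in the regorafenib tumours, 2.87, 2.75 and 2.66 in the DC-101 tumours and 2.90 to 3.20 in the vehicle tumours, so the treated groups overlapped. Its part in the results was not tested.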
